A study of Homo sapiens with 4 samples.

Results

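The translation initiation factors other than eIF2 itself were followed as mRNAs in Huh7 cells, a line from a human liver tumour. The 45 members were chosen by symbol and by abundance: rows of the deposited count table that start with EIF, without the eIF2 subunits and the eIF2 kinases, with at least 20 counts summed over the 4 libraries. They came from 42169 gene rows, of which 58 start with EIF. Of these 58, 4 are eIF2 kinases, 3 are eIF2 subunits and 6 fell under the minimum. The rule used only the summed count, and the comparison of clones was not part of it. The members just inside the minimum were EIF1B-AS1 with 28 counts and EIF5AL1 with 38, and the first row outside it was EIF3CL with 2.

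A control clone (clone 1, labelled WT) and a clone lacking TTP and BRF1 (clone 18, labelled Brf1/TTP DKO) gave 2 libraries each. TTP and BRF1, encoded by ZFP36 and ZFP36L1, are proteins that recognise AU-rich stretches of 3′ UTRs and recruit the enzymes that shorten the poly(A) tail. Cells of both clones were kept in DMSO for 3 h and then held in 5 µg/ml actinomycin D, an inhibitor of transcription, for 10 min, so no library shows untreated cells. Total RNA was spiked with ERCC RNA, depleted of ribosomal RNA and sequenced. Each genotype is 1 clone, so a difference between clones and an effect of the genotype cannot be told apart. Nothing in the labels says that replicates were cultured separately, and the p-values measure only how far these libraries differ, possibly for technical reasons.

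Counts on genes ran from 9685798 to 16430228 per library, and the members took 0.914% to 0.962% of them. In the same order of libraries (control 1 and 2, DKO 1 and 2), ZFP36 stood at 30.0, 23.3, 37.5 and 36.2 CPM (counts scaled to the library's total on genes) and ZFP36L1 at 135, 109, 147 and 118 CPM, so the mRNAs of the deleted genes were not lower in DKO and do not check the labels. All 15 hepatoma markers examined, such as APOB, had at least 5 counts in each library, with a summed level of 28701 to 29423 CPM in control and 27681 to 30913 CPM in DKO. The 3 endothelial markers were at 0. Blood cell markers summed to 74.9 and 76.8 CPM in control and 108 and 124 CPM in DKO, nearly all of it LYZ, with CD3E and HBB at 0. Fibroblast markers summed to 20.4 to 23.8 CPM in control and 21.5 to 26.9 CPM in DKO, and neural markers to 5.52 to 8.47 and 6.63 to 10.5 CPM, and the part of these lists in the results was not tested.

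Initiation begins when eIF2 brings the initiator tRNA to the small ribosomal subunit, held by eIF1, eIF1A, eIF3 and eIF5. The cap-binding protein eIF4E, the scaffold eIF4G and the helicase eIF4A then load this complex on the capped mRNA, and it scans to a start codon, where eIF5B joins the large subunit. Control acts at a pair of steps above all: eIF2B recharges eIF2 with GTP and is blocked when eIF2 is phosphorylated, and the eIF4E-binding proteins hold eIF4E until the kinase mTOR releases it.

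Not every factor could be read from this table. EIF4A1, which encodes the main helicase of the complex, was listed at 0 in all 4 libraries, although growing cells use it. In GENCODE release 29 (hg38), 48.6% of its exon bases lie in exons of other genes on the same strand, among them the read-through gene SENP3-EIF4A1, and 100% of the 80-base words of its longest transcript also occur in a transcript of another gene. The row SENP3-EIF4A1 held 7 counts in all. EIF3C encodes a core subunit of eIF3 and shares 49.1% of its 80-base words with its copy EIF3CL. It had 150 counts in all, and its level is uncertain. The inhibitor gene EIF4EBP3 was likewise listed at 0. It shares 70.4% of its words with the read-through gene ANKHD1-EIF4EBP3, whose row held 67 counts. EIF4E1B, EIF1AY and EIF1AX-AS1 were listed at 0 as well, with none of their words shared. Among members, EIF3L (42.4%), EIF4B (19.6%), EIF6 (16.9%), EIF5A (16.3%), EIF5AL1 (10.3%) and EIF3E (10.1%) shared over 10% of their words with other genes, and their values carry the same reservation.

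No initiation factor mRNA outside eIF2 differed between the clones past the threshold. Of 44 members tested, 0 passed at an edgeR adjusted p under 0.05, where 5.37% of all 13359 genes tested did, and DESeq2 and limma-voom also called 0. At an unadjusted edgeR p under 0.05, 2 members (EIF5A2 and EIF1) were higher in DKO and 0 lower, 4.55% of the members against 20.2% of all genes. The log2 fold change of DKO over control was above 0 for 26 members and below 0 for 18, with a median of 0.032 beside 0.002 over all genes. It lay within 0.5 of 0 for 86.4% of the members and for 76.0% of all genes. The 95% interval stayed within 1 log2 unit of 0 for 39 members. It reached beyond 1 for EIF5A2, EIF4E3, EIF3C, EIF5AL1 and EIF3J-AS1, so a 2-fold change of these is within the interval. Members were more abundant than most genes, with a median of 112 CPM beside 27.0 CPM for all genes tested.

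**Figure D1:**
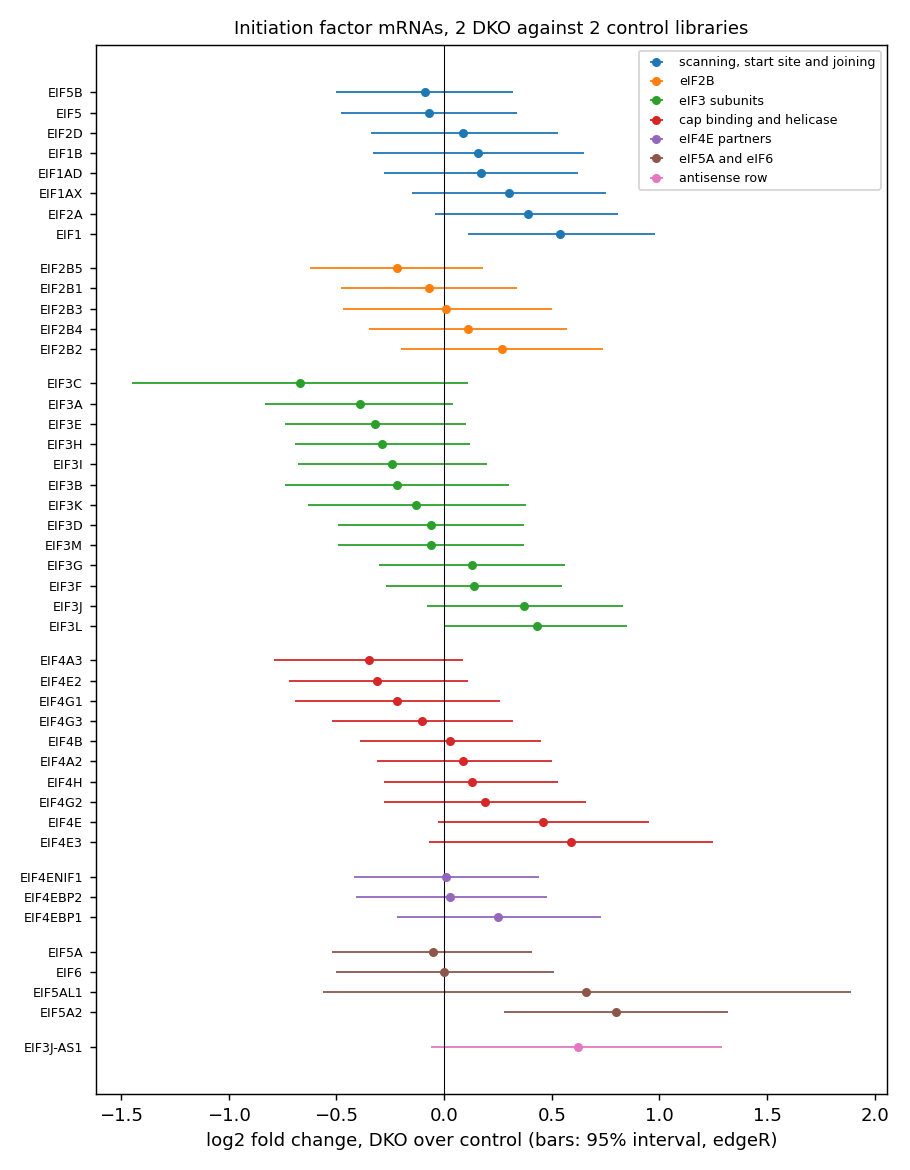
Log2 fold change of DKO over control for each of the 44 tested members (points) with its 95% interval from edgeR (bars), grouped by role. The intervals of EIF5A2 and EIF1 alone lie wholly above 0, and no interval lies wholly below it.

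Counted by library, the DKO pair lay above the control pair for 9 members (an order shown by 23.7% of all genes), and below it for 8 members (26.2% of all genes). The libraries of the clones overlapped for 27 members. Scaled to the ERCC spike-ins, the median of all genes moved to -0.68 and that of the members to -0.675. Directions here are thus relative to the median gene. ERCC rows took 1.47% and 0.946% of the counts in control and 1.62% and 2.1% in DKO. Their share thus also differed between libraries of a clone.

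The group set up for scanning, start site choice and tRNA delivery had 8 members tested, 6 with positive and 2 with negative values. None passed, and whether each member acts in these steps was not tested. EIF1, whose product keeps the scanning complex open until the start codon is met, had 337 and 346 CPM in the control libraries and 445 and 543 CPM in the DKO libraries. The groups did not overlap and the control libraries were close to each other. Its log2 fold change was 0.54 (SE 0.20, edgeR adjusted p = 0.141). EIF1 lies on chromosome 17 (41688885 to 41692668, hg38, plus strand), and the 50 nearest tested genes had a median of 0.03.

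EIF2A encodes a tRNA-binding factor that is distinct from eIF2, and had 56.5 and 42.1 CPM in control and 62.4 and 65.1 CPM in DKO. The groups did not overlap, and the log2 fold change was 0.39 (SE 0.20, edgeR adjusted p = 0.292). EIF1AX, the X-linked gene of eIF1A, had 176 and 119 CPM in control and 195 and 164 CPM in DKO, and these libraries overlapped. Its log2 fold change was 0.30 (SE 0.21, edgeR adjusted p = 0.460). Its 50 neighbours had a median of 0.35. The other members of the group were EIF1AD (0.17), EIF1B (0.16), EIF2D (0.095), the GTPase activator gene EIF5 (-0.070) and the subunit-joining factor gene EIF5B (-0.094). Per kilobase of exons, EIF1 made up 79.9% and 86.8% of the summed level of EIF1 and its paralogue EIF1B in control and 84.2% and 88.8% in DKO, ranges that overlap.

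The 5 subunits of eIF2B, the exchange factor whose block by phosphorylated eIF2 is the core of the integrated stress response, had differences within 0.27 on the log2 scale, and none passed. The regulatory subunit gene EIF2B1 had 47.9 and 49.6 CPM in control and 45.3 and 46.8 CPM in DKO (log2 fold change -0.072, SE 0.19, edgeR adjusted p = 0.881). EIF2B2, also regulatory, had 27.7 and 35.7 CPM and 34.0 and 42.0 CPM (0.27, SE 0.22, edgeR adjusted p = 0.537). EIF2B4, the third regulatory subunit, had 27.7 and 34.5 CPM and 31.1 and 35.5 CPM (0.11, SE 0.22, edgeR adjusted p = 0.833). None of these 3 passed, and each differed by less than 0.5 on the log2 scale.

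The other 2 subunits form the catalytic part of the complex. EIF2B3 had 27.6 and 39.7 CPM in control and 31.3 and 36.3 CPM in DKO (0.013, SE 0.23, edgeR adjusted p = 0.983). EIF2B5, which carries the exchange activity, had 73.6 and 71.5 CPM and 59.9 and 63.7 CPM (-0.22, SE 0.19, edgeR adjusted p = 0.561). For EIF2B1 and EIF2B5 both DKO libraries lay below both control libraries, an order shown by 26.2% of all genes. For the other 3 the libraries overlapped. The 95% intervals of the 5 subunits lay between -0.62 (the lower end for EIF2B5) and 0.74 (the upper end for EIF2B2).

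eIF3, the largest of the factors, bridges the small subunit and eIF4G. Of its 13 subunit genes, 9 had negative and 4 positive values, with a median of -0.128, and none passed (lowest edgeR adjusted p = 0.249). EIF3A, the scaffold subunit, had 600.5 and 523 CPM in control and 468 and 380 CPM in DKO. Its groups did not overlap, and the log2 fold change was -0.39 (SE 0.21, edgeR adjusted p = 0.299). It lies on chromosome 10 (119033670 to 119080823, minus strand), where its 50 neighbours had a median of 0.15.

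EIF3E and EIF3H, both parts of the octamer core, share a chromosome arm, and the median of their neighbours was below 0 as well. EIF3E had 168 and 130 CPM in control and 112 and 123.5 CPM in DKO (-0.32, SE 0.20, edgeR adjusted p = 0.388), and its 50 neighbours had a median of -0.32. EIF3H had 126 and 104 CPM and 94.0 and 92.5 CPM (-0.29, SE 0.19, edgeR adjusted p = 0.429), with a neighbour median of -0.34. Both values were thus about as low as the medians of the genes around them, and the part of the segment in their values was not tested.

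EIF3L and EIF3J were the highest of the group. EIF3L, another part of the octamer core, had 104 and 79.5 CPM in control and 114 and 130 CPM in DKO, which did not overlap (0.43, SE 0.20, edgeR adjusted p = 0.249). EIF3J, a loosely bound subunit that helps to recruit the complex, had 120 and 77.8 CPM and 136 and 117 CPM (0.37, SE 0.21, edgeR adjusted p = 0.351), and its lower DKO library lay under its higher control library. Without control replicate 1, EIF3J passed at 0.67 (edgeR adjusted p = 0.0355), in a fit where 15.6% of all genes passed. Without control replicate 2 the value was 0.11 (edgeR adjusted p = 0.884), so the size of the difference rests on which control library is kept. Removing GC and length trends left 0.19 for EIF3J. EIF3C, with 5.06 and 2.96 CPM and 3.02 and 2.01 CPM, differed by -0.67 (SE 0.37, edgeR adjusted p = 0.325) on few reads. The others were EIF3F (0.14), EIF3G (0.13), EIF3D (-0.057), EIF3M (-0.057), EIF3K (-0.13), EIF3B (-0.22) and EIF3I (-0.24).

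The subunits of this single complex were not at like mRNA levels. On the scale of CPM per kilobase of exons, averaged over the 4 libraries, the level ran from 9.30 for EIF3F to 141 for EIF3I, with a median of 35.6 over the 12 subunits other than EIF3C, and EIF3C stood at 0.467. With the length of the principal transcript in place of all exons, EIF3F was again lowest of the 12 at 11.6 and EIF3B highest at 234. EIF3F is annotated with a longest transcript of 7540 bases, which lowers its value on either scale. The order of neighbours such as EIF3D (36.0) and EIF3J (35.3) was within the spread between libraries.

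**Figure D2:**
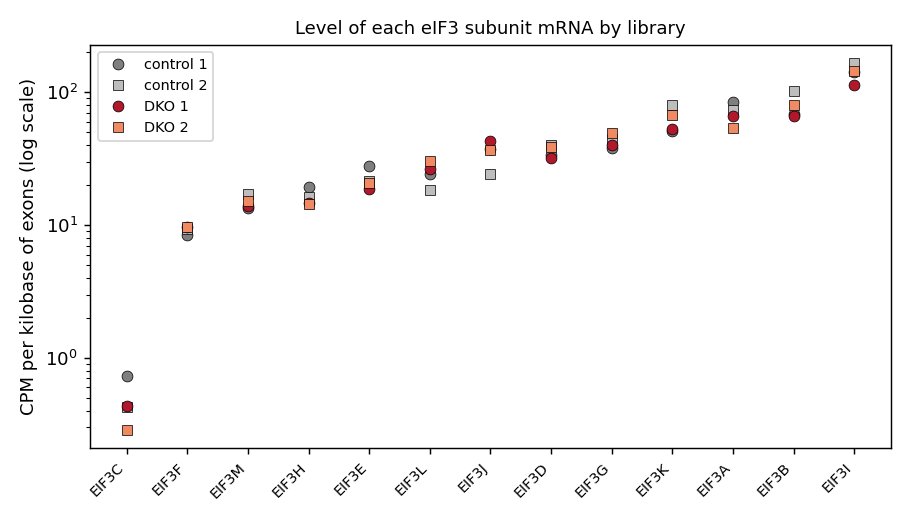
Level of the 13 eIF3 subunit mRNAs in CPM per kilobase of exons (log axis), with 1 point per library. The 4 libraries of each subunit lie close together compared with the range over subunits, and EIF3C at 0.467 on average lies under the other 12.

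Among the 10 cap-binding and helicase genes, 6 had positive and 4 negative values and none passed. EIF4E, the cap-binding protein, had 35.3 and 22.1 CPM in control and 42.4 and 35.6 CPM in DKO. The groups did not overlap, though the gap between control 1 and DKO 2 was narrow. Its log2 fold change was 0.46 (SE 0.23, edgeR adjusted p = 0.276), with a 95% interval from -0.03 to 0.95, and it depended on the control library kept: 0.79 without control replicate 1 (edgeR adjusted p = 0.0124) and 0.18 without control replicate 2 (edgeR adjusted p = 0.804). EIF4E lies on chromosome 4 (98871684 to 98930637, minus strand), with a neighbour median of 0.11.

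The paralogues of EIF4E went in both directions. EIF4E2, whose product binds the cap without recruiting eIF4G and represses translation, had 94.6 and 96.4 CPM in control and 70.4 and 82.7 CPM in DKO, which did not overlap (-0.31, SE 0.19, edgeR adjusted p = 0.405). EIF4E3, a minor paralogue, had 2.89 and 3.60 CPM and 4.77 and 4.99 CPM, also without overlap (0.59, SE 0.31, edgeR adjusted p = 0.306). Per kilobase of exons, EIF4E made up 15.7% and 10.2% of the summed level of the 3 genes in control and 22.7% and 17.4% in DKO, and EIF4E2 82.6% and 87.6%, then 73.9% and 79.4%. These shares rest on the annotated length of EIF4E, 14067 bases of exons: with principal transcripts, the share of EIF4E was 4.92% and 3.07% in control and 7.67% and 5.60% in DKO. On both lengths, EIF4E2 held the largest share and the DKO libraries did not overlap the control libraries for EIF4E.

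By CPM, the scaffolds EIF4G1 and EIF4G2 were the most abundant members. In CPM per kilobase of exons, averaged over the 4 libraries, EIF5A (202.7) lay above EIF4G2 (178.8) and EIF4G1 (153.9). This order rests on the length used. Per kilobase of the principal transcript, EIF4G2 (785.8) lay above EIF5A (377.6) and EIF4G1 (230.3). EIF4G1, which joins the cap-binding protein to eIF3, had 1264 and 1473 CPM in control and 1172 and 1172 CPM in DKO (-0.22, edgeR adjusted p = 0.646). EIF4G2, a relative that lacks the eIF4E-binding part, had 1506 and 1397 CPM and 1635 and 1651.5 CPM (0.19, edgeR adjusted p = 0.690). Neither pair of groups overlapped, and neither difference passed. Among EIF4G1, EIF4G2 and EIF4G3 per kilobase of exons, EIF4G2 took 50.8% and 45.8% in control and 54.7% and 55.5% in DKO. With principal transcripts, of which that of EIF4G2 is 1969 bases, the same share was 75.0% and 71.1%, then 77.8% and 78.4%.

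EIF4A3 encodes the helicase of the exon junction complex, which marks spliced mRNAs and is no part of the cap-binding complex. It had 148 and 189 CPM in control and 119 and 143 CPM in DKO, and the groups did not overlap. The log2 fold change was -0.35 (SE 0.21, edgeR adjusted p = 0.367), beside a neighbour median of -0.27 on chromosome 17. The other genes of the group were the second helicase gene EIF4A2 (0.095), the helicase partners EIF4H (0.13) and EIF4B (0.031), and EIF4G3 (-0.10).

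The 3 partners of eIF4E that were tested had values above 0, and none passed. EIF4EBP1, the best known of the inhibitors that mTOR controls, had 47.5 and 68.4 CPM in control and 63.2 and 74.6 CPM in DKO (0.25, SE 0.22, edgeR adjusted p = 0.563). EIF4EBP2 had 466 and 343 CPM and 438 and 381 CPM (0.033, SE 0.21, edgeR adjusted p = 0.952). The transporter EIF4ENIF1, which carries eIF4E to the nucleus and to P-bodies, had 30.1 and 30.1 CPM and 29.6 and 30.5 CPM (0.0063, SE 0.20, edgeR adjusted p = 0.991). All 3 overlapped between the clones. Per kilobase of exons, EIF4EBP1 and EIF4EBP2 were at like levels, 59.1 and 56.1 CPM per kilobase over the 4 libraries, and EIF4EBP1 made up 40.8% and 57.4% of their sum in control and 49.4% and 57.0% in DKO.

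Among eIF5A, which helps ribosomes through hard-to-join residues and carries the modified amino acid hypusine, its relatives and EIF6, EIF5A2 differed most of all members. EIF5A2, the less abundant paralogue of EIF5A, had 23.5 and 13.9 CPM in control and 34.7 and 29.5 CPM in DKO, so the groups did not overlap, and replicate 1 lay above replicate 2 in each clone. Its mean was 1.71-fold higher in DKO (log2 fold change 0.80, SE 0.25, edgeR adjusted p = 0.0733), with a 95% interval from 0.28 to 1.32. It passed without control replicate 1 (1.17, edgeR adjusted p = 0.000177), with no filter on low counts (0.81, edgeR adjusted p = 0.0166, where 5.39% of all genes passed) and with GC and length trends removed (0.60, edgeR adjusted p = 0.0161, where 15.2% did), and it was 0.48 without control replicate 2 (edgeR adjusted p = 0.320) and 0.19 with ERCC totals. EIF5A2 lies on chromosome 3 (170888415 to 170908693, minus strand), with a neighbour median of 0.17.

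EIF5A itself had 594 and 574 CPM in control and 479 and 635 CPM in DKO (-0.054, SE 0.22, edgeR adjusted p = 0.922), and the libraries overlapped. Per kilobase of exons, EIF5A2 made up 1.96% and 1.21% of the sum of EIF5A and EIF5A2 in control and 3.51% and 2.29% in DKO. With principal transcripts the shares were 1.06% and 0.651%, then 1.92% and 1.24%, again without overlap. EIF5AL1, a near copy of EIF5A, had 0.929 and 0.320 CPM in control and 0.974 and 0.913 CPM in DKO on 4 to 15 counts per library (0.66, SE 0.58, edgeR adjusted p = 0.562). EIF6, which keeps the ribosomal subunits apart until the large one is mature, had 186 and 271 CPM and 190 and 266 CPM (0.0047, edgeR adjusted p = 0.993). The antisense rows were low: EIF3J-AS1 had 3.20 and 2.64 CPM in control and 4.48 and 4.38 CPM in DKO (0.62, SE 0.32, edgeR adjusted p = 0.290), and EIF1B-AS1 was not tested at 4 to 10 counts per library. The library kit keeps the strand, but the strand setting of the counting was not given in the sources used here. EIF3J-AS1 was not matched to 1 GENCODE gene, so its overlap with the gene it runs against was not measured. Whether reads from a stretch they share were told apart is not known.

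**Figure D3:**
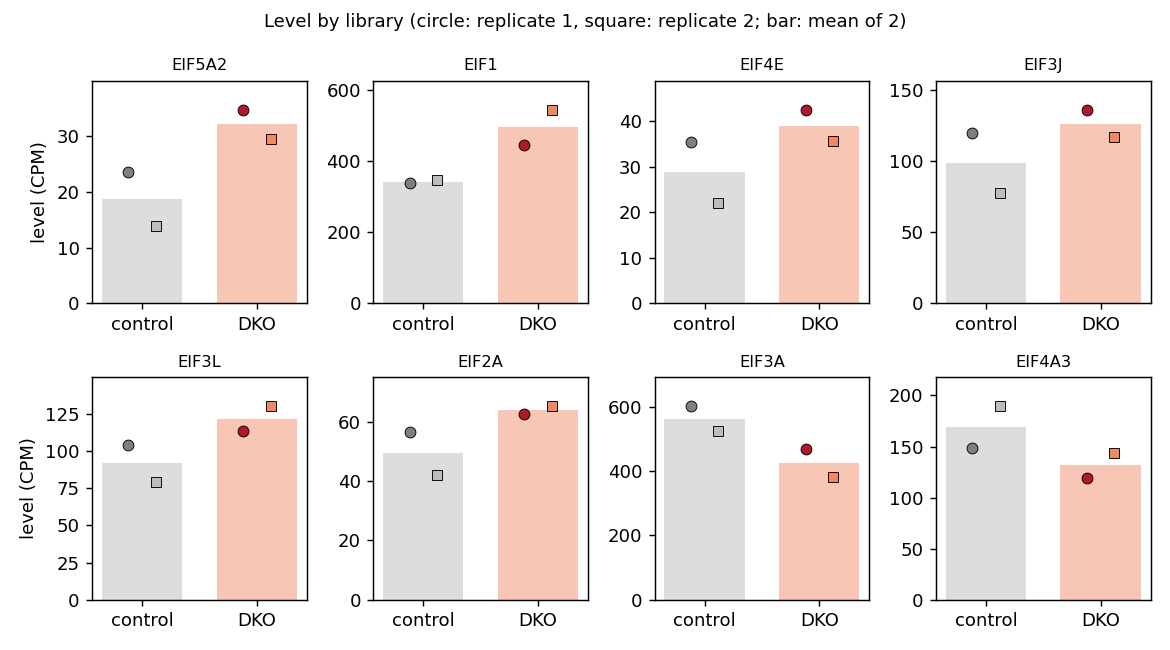
Level in CPM of 8 members in each library (circles replicate 1, squares replicate 2) with the mean of the 2 libraries of a clone as a bar. EIF5A2, EIF1, EIF4E, EIF3L and EIF2A are higher in both DKO libraries than in both control libraries, EIF3J overlaps, and EIF3A and EIF4A3 are lower, none past the threshold.

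TTP and BRF1 recognise UAUUUAU in 3′ UTRs, so the longest annotated 3′ UTR of each member was searched for these letters on the transcript strand, overlapping matches included. The longest was taken over all annotated transcripts with a coding part, whatever their type, so it can include bases that other transcripts translate. That of EIF4G1, for example, had 4684 bases beside a principal transcript of 5516 bases. Of the 43 protein-coding members, all tested, 15 (34.9%) held at least 1 match, close to the 36.1% of 11900 tested protein-coding genes. The median log2 fold change was 0.17 for the 15 members with a match and 0.01 for the 28 without. For all genes with and without, it was 0.04 and -0.03. Positive values stood in 9 of the 15 members and in 16 of the 28. Over all genes they stood in 2355 of 4294 with a match and 3559 of 7606 without. At least 3 matches stood in 3 members, EIF5A2 with 6, EIF4E with 4 and EIF3J with 3 (6.98% of members and 7.32% of all genes), and these 3 had values of 0.80, 0.46 and 0.37, beside a median of 0.08 for all genes with as many. Without control replicate 2 the same 3 values were 0.48, 0.18 and 0.11. The 2 members with 2 matches, EIF4G3 and EIF5B, were at -0.10 and -0.094. Members with a match had longer 3′ UTRs (median 2369 bases beside 634) and a lower GC content (39.7% beside 49.2%), and the parts of UTR length and GC content in the difference were not tested.

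The matches of the 3 members with the most are shown with the bases around them, as the sites at which the missing proteins could bind, with UAUUUAU in capitals, from GENCODE 29 transcripts on hg38 and 5′ to 3′. In EIF5A2 (minus strand), the first match lies at base 880 and the last at base 4476 of a 3′ UTR of 4945 bases, and the last is also a match to the longer form UUAUUUAUU.
EIF5A2, chr3:170892463-170892491: auaaauaguaaUAUUUAUcaguaaauacu
EIF5A2, chr3:170892087-170892115: ugacauuaaugUAUUUAUuaaacaaaaac
EIF5A2, chr3:170891003-170891031: auggcaaacgcUAUUUAUgcauaaauauu
EIF5A2, chr3:170890594-170890622: uuagaacauuuUAUUUAUacugugaagac
EIF5A2, chr3:170889019-170889047: acagguuauugUAUUUAUaugaagucccu
EIF5A2, chr3:170888867-170888895: uuuugaggaguUAUUUAUugugguuaaua
In EIF4E (minus strand), with a 3′ UTR of 9344 bases, the third match shown overlaps the fourth, which begins 4 bases further on. The third is also a match to UUAUUUAUU.
EIF4E, chr4:98879558-98879586: guguuaagacaUAUUUAUagugguaaauu
EIF4E, chr4:98876935-98876963: aaauuaaaaaaUAUUUAUguaugugugua
EIF4E, chr4:98873796-98873824: auuuuuauuuuUAUUUAUuuaucuuuuug
In EIF3J (plus strand), with a 3′ UTR of 1654 bases, the middle match also holds UUAUUUAUU.
EIF3J, chr15:44561794-44561822: gacugucuaguUAUUUAUcaggcuauuuc
EIF3J, chr15:44562266-44562294: ugccuuccucuUAUUUAUuuggggacauu
EIF3J, chr15:44562334-44562362: ccuauaagaacUAUUUAUuuggaguaacu
The longer form stood in 4 members, these 3 and EIF2B2 (9.30%, beside 9.35% of all genes), and all 4 had positive values, as did 629 of the 1113 genes that hold it, with a median of 0.42 for the 4 beside 0.06. EIF1, second after EIF5A2 by unadjusted p, held 1 match, and EIF3A, at -0.39, also held 1. A match says only that the letters are in the annotated UTR. Which UTR Huh7 cells use, and whether the proteins bind there, was not measured.

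**Figure D4:**
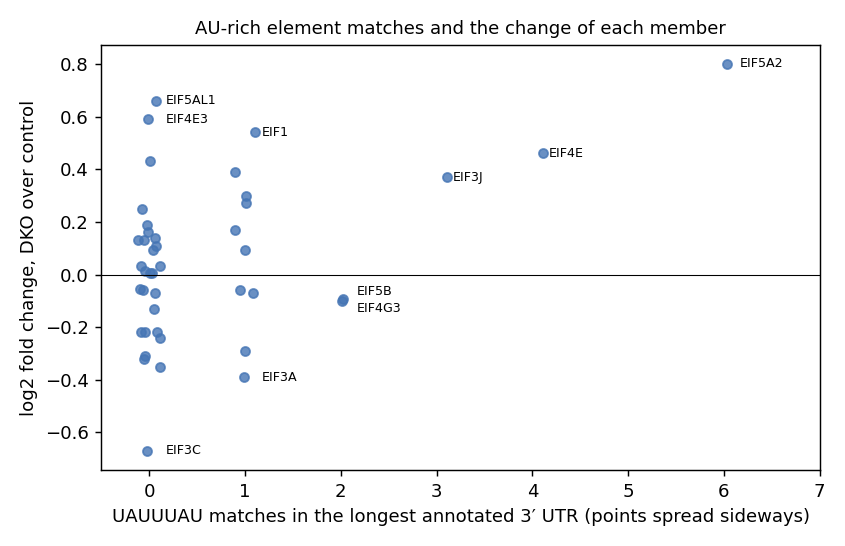
Log2 fold change of DKO over control (vertical axis) against the number of UAUUUAU matches in the longest annotated 3′ UTR (horizontal axis, points spread sideways so that they can be seen), with 1 point for each of 43 members. The 3 members with at least 3 matches lie at 0.37 to 0.80, and members with 0 or 1 match spread from -0.67 to 0.66.

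The libraries of a clone differed from each other along GC content, and the members followed. Across 43 members, the log2 ratio of control replicate 2 over control replicate 1 correlated with the GC content of the longest transcript at r = 0.52 (Spearman 0.54), and the same ratio in DKO at r = 0.56 (Spearman 0.59). Across 13120 tested genes, which are not independent replicates, the values were 0.57 and 0.41. The log2 fold change of DKO over control correlated with GC content at r = -0.25 across members and -0.20 across all genes. EIF5A2, at 34.29% GC the lowest of these members, was lower in replicate 2 of each clone, and EIF4EBP1, at 65.49% the highest, stood higher in replicate 2 of each. All points share the same 4 libraries, so these correlations are a description. With GC and length trends removed, the median of the members was 0.008.

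**Figure D5:**
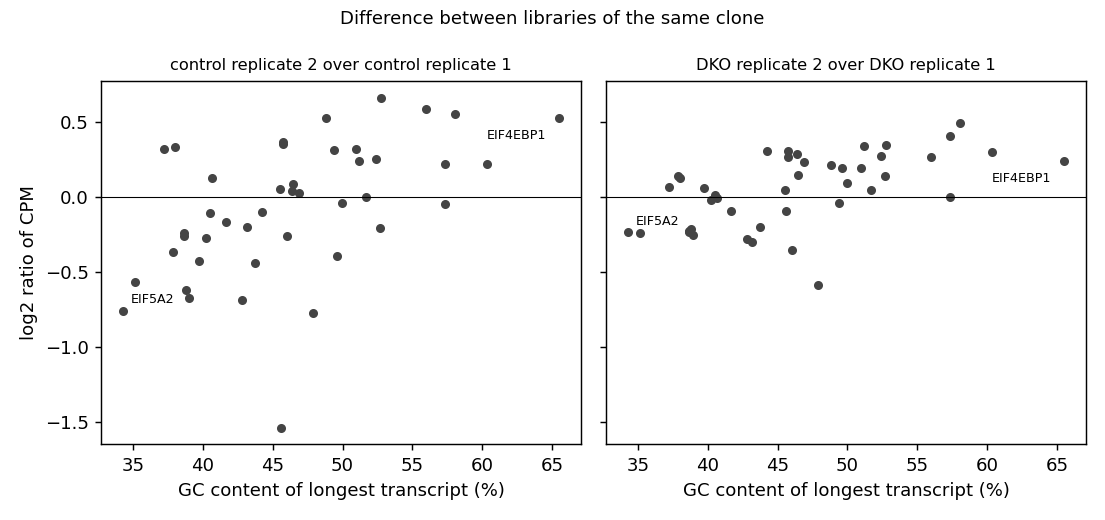
Log2 ratio of CPM between the 2 libraries of the control clone (left) and of the DKO clone (right) against the GC content of the longest transcript, with 1 point for each of 43 members. In both clones EIF5A2 is lower in replicate 2 and EIF4EBP1 higher, and the points between them scatter around a rise with GC content (r = 0.52 and 0.56).

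Other genes of translation and of the TOR pathway, a list of 58, were read beside the members. Of 55 tested, 1 rose and 3 fell (4 of 55 is 7.27%, beside 5.37% of all genes), and the median was 0.021. EEF1A2, the minor isoform of the elongation factor that delivers aminoacyl-tRNA, rose from 3.30 and 4.24 CPM to 8.57 and 10.7 CPM (1.36, SE 0.29, edgeR adjusted p = 0.0138). The groups did not overlap, and the call was lost without DKO replicate 2 (1.16, edgeR adjusted p = 0.181) and with ERCC totals (0.63).

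The 3 that fell act on mTOR, on the cap and on scanning. DEPTOR, an inhibitor of mTOR, fell from 13 and 11.8 CPM to 3.21 and 5.90 CPM (-1.39, SE 0.30, edgeR adjusted p = 0.0144), and did not pass without DKO replicate 1 (-1.03). GIGYF1, a partner of the repressor that EIF4E2 encodes, fell from 73.4 and 84.8 CPM to 50.5 and 36.8 CPM (-0.86, SE 0.21, edgeR adjusted p = 0.0278). DHX29, a helicase that helps scanning through structured leaders, fell from 63.0 and 52.3 CPM to 34.2 and 32.5 CPM (-0.78, SE 0.20, edgeR adjusted p = 0.0319). In all 3 the groups did not overlap. GIGYF1 and DHX29 passed neither without DKO replicate 1 (-1.07 and -0.79) nor without DKO replicate 2 (-0.66 and -0.76), and with ERCC totals both missed the threshold at -1.53 and -1.43. The 50 neighbours had medians of -0.37 for DEPTOR, -0.17 for GIGYF1 and -0.50 for DHX29. The major elongation factor gene EEF1A1 (0.20), the helicase DDX3X (0.084) and mTOR itself (MTOR, -0.31) did not pass, nor did the poly(A)-binding protein gene PABPC1 (-0.44), and EEF1G was, like EIF4A1, listed at 0.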

How the data were processed

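RNA-seq was analysed in 2 control and 2 DKO libraries. The authors deposited 1 table of raw read counts per gene symbol, with no normalization. Reads were 80 bases from 1 end, per the labels' protocols. STAR 2.5.3a, Subread 1.6.3, featureCounts, DESeq2 and hg38 are named in the submitters' processing notes. Which annotation and strand setting were used, and how multi-mapped reads were treated, was not given in the sources used here.

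The 92 ERCC rows were left out of library sizes and tests. Counts were tested with edgeR 4.0.16 in R 4.3.3 (filterByExpr, TMM factors, quasi-likelihood test, group as the only term) over 13359 genes, with Benjamini-Hochberg adjustment and a threshold of 0.05. A single gene with 2 libraries against 2 cannot reach an exact permutation p under 0.333, so each adjusted p depends on edgeR pooling information on the spread over all genes. Each edgeR SE is the absolute log2 fold change divided by the square root of the F statistic of the quasi-likelihood test. The 95% intervals use this SE and the degrees of freedom of the edgeR fit. CPM are counts scaled to the total on genes. A count of 3 was worth 0.183 to 0.310 CPM, and counting error is a lower limit of the error because reads carried no molecular identifiers. Libraries of a clone differed by more than counting error (chi-square per degree of freedom 24.2 and 19.7), so none was the same library deposited again. This does not tell repeat preparations of 1 culture from separate cultures.

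Symbols were matched to GENCODE 29 on hg38 (40751 of 42169 gene rows matched 1 gene, and 44 of 45 members), from which positions, lengths, GC content, 3′ UTRs and shared 80-base words were taken. The neighbour median is that of the 25 tested genes on each side. Alternatives were other scalings (size factors, library totals, ERCC totals), no filter, DESeq2 1.42.0, limma-voom (limma 3.58.1), a replicate block, removal of GC and length trends by loess, and leaving out each library. Principal transcript lengths were added after the exon lengths had been seen. Every member is named. By the naming rule, full values are given for members past the threshold in any fit, the 3 with the lowest p in each role group, the eIF2B subunits and the eIF4E-binding proteins, and for pathway genes past the threshold. EIF3H, EIF4G1, EIF4G2, PABPC1, MTOR, EEF1A1, DDX3X and EEF1G were singled out after their values were seen. The members and lists were chosen with earlier results of these data known.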

Additional observations from a re-analysis of the deposited data

How the results depend on the processing

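The 0 members past the threshold became 1 with no filter (2.22% of members beside 5.39% of all genes). The number was also 1 with GC and length trends removed (2.27% beside 15.2%). Without control replicate 1, EIF5A2, EIF4E and EIF3J stood at 1.17, 0.79 and 0.67. Without control replicate 2, these 3 stood at 0.48, 0.18 and 0.11. With the replicate number as a replicate block, 11 members passed (25% of members beside 30.1% of all genes): 7 higher, EIF5A2 (0.83, edgeR adjusted p = 1.78e-06), EIF1 (0.54, edgeR adjusted p = 0.000159), EIF3L, EIF4E, EIF3J, EIF2A and EIF1AX, and 4 lower, EIF3A, EIF4A3, EIF3E and EIF4E2. The labels give no shared culture or day for same-numbered libraries, whose deviations correlated at 0.47. Over all genes the 718 calls became 335 with ERCC totals (20 higher and 315 lower, beside 299 and 419), 1194 with no filter, where more genes were tested, 2024 with GC and length trends removed, 4021 with the replicate block, and 218 to 2172 in the fits without 1 library. Of the pathway genes, 1 passed with ERCC totals (1.82% beside 2.53% of all genes) and 16 with the replicate block (29.1% beside 30.1%). The cause of these changes was not tested.

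The median of the members moved to -0.675 with ERCC totals, that of all genes to -0.68. Only 1 of 43 members tested there, EIF5A2 (0.19), had a positive value, against 26 of 44. Among the members described in full, the sign turned for EIF1 (-0.17), EIF1AX (-0.32), EIF2A (-0.26), EIF2B2 (-0.47), EIF2B3 (-0.74), EIF2B4 (-0.62), EIF3J (-0.24), EIF3J-AS1 (-0.051), EIF3L (-0.24), EIF4E (-0.14), EIF4E3 (-0.12), EIF4EBP1 (-0.50), EIF4EBP2 (-0.60) and EIF4ENIF1 (-0.69). Values near 0 also changed sign for EIF2B3 with GC and length trends removed (-0.034) and for EIF4ENIF1 with library totals (-0.0043). In the fits without 1 library the ranges crossed 0 for EIF2B3 (-0.25 to 0.34), EIF2B4 (-0.070 to 0.31), EIF4EBP1 (-0.012 to 0.58), EIF4EBP2 (-0.15 to 0.23), EIF4ENIF1 (-0.038 to 0.049) and EIF5A (-0.30 to 0.16). None of these values passed the threshold. With 2 libraries per clone, a fit without 1 library assumes that the lone library varies like the others. Depth limits EIF3C, EIF5AL1, EIF4E3 and the antisense rows, which rest on few reads.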
